A study of Mus musculus with 4 samples.

Results

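The levels of 8 goblet cell and mucus genes, Muc2, Tff3, Clca1, Fcgbp, Zg16, Agr2, Spdef and Spink4, were followed in RNA-seq of sorted intestinal T cells. The genes were chosen by name as known goblet cell genes, and all 8 were found among the 19339 genes listed. The cells were TCRβ+CD8αα+ intraepithelial lymphocytes (IELs), T cells that live between the epithelial cells of the gut, taken from the small intestine of C57BL/6 mice. There were 2 control libraries (replicates 1 and 3) from Kdm6b fl/fl mice and 2 libraries labelled Kdm6b-deficient (replicates 1 and 3) from Kdm6b fl/fl-CD4Cre mice. Both genotypes carried the loxP-flanked Kdm6b alleles, and Kdm6b encodes a demethylase that removes methyl groups from lysine 27 of histone H3. CD4Cre acts in T cells from a late double-negative stage in the thymus, and is not directed to epithelial cells such as goblet cells. Each library was made from RNA pooled over 3 mice of one genotype, and the age of the mice was not given in the sources used here. The study detached the epithelial layer with EDTA and DTT, collected lymphocytes at a Percoll interphase and sorted CD45+CD4-TCRβ+CD8α+CD8β- cells, a gate that goblet cells, which lack CD45 and the T cell receptor, are outside of.

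Goblet cells are secretory cells of the intestinal epithelium that make the mucus covering the gut surface. Their mucin is built as a very large glycoprotein, folded and joined into polymers in the endoplasmic reticulum, coated with O-linked sugars in the Golgi, packed into granules and released, where it swells into a gel together with other secreted proteins. The cells arise from crypt progenitors of the secretory lineage through Atoh1 and then mature under Spdef, and Paneth cells are their neighbours in the same lineage.

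The members fall into these roles. Muc2 (Entrez 17831, chr7:141690340-141754691) is the gel-forming mucin of the intestine. Fcgbp (Entrez 215384, chr7:28071236-28120864), Clca1 (Entrez 23844, chr3:145004537-145032776) and Zg16 (Entrez 69036, chr7:127050156-127052675) are proteins of the mucus layer. Tff3 (Entrez 21786, chr17:31125306-31129611) is a small trefoil peptide of epithelial repair, and Spink4 (Entrez 20731, chr4:40920056-40931395) is a secreted peptide with a Kazal-type protease inhibitor domain. Agr2 (Entrez 23795, chr12:35992925-36004081) is a disulfide isomerase of the endoplasmic reticulum that is needed to make Muc2. Spdef (Entrez 30051, chr17:27714446-27731003) is the ETS transcription factor of goblet cell maturation. Coordinates are of GRCm38.p6, from RefSeq.

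The promoters of the members are shown where the reference held one, which was the case for 4 of the 8. The 250 bases before the start that the reference table uses are given 5′ to 3′ on the strand of the gene, from RefSeq (GRCm38.p6), and the capitals mark the letters of the motifs searched. They lie at chr7:141690090-141690339 (plus strand) for Muc2, chr7:28070986-28071235 (plus) for Fcgbp, chr12:35992675-35992924 (plus) for Agr2 and chr17:27728952-27729201 (minus) for Spdef. Spdef has 5 RefSeq transcripts, and its window lies before the start of an inner one, within the gene interval given above and not before the outermost start.
Muc2: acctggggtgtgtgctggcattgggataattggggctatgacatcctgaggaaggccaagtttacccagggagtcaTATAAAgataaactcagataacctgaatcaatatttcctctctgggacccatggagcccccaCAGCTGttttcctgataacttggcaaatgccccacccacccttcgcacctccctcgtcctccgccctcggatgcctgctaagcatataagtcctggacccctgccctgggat
Fcgbp: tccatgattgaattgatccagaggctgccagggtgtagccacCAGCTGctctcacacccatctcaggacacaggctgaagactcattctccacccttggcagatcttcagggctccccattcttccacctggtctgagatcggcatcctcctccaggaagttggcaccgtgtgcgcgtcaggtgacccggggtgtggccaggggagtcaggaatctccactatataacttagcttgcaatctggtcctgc
Agr2: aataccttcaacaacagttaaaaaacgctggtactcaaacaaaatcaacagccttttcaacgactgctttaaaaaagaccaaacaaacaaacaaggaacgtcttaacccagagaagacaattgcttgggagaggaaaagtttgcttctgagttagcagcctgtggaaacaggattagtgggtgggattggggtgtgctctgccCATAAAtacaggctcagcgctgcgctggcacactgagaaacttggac
Spdef: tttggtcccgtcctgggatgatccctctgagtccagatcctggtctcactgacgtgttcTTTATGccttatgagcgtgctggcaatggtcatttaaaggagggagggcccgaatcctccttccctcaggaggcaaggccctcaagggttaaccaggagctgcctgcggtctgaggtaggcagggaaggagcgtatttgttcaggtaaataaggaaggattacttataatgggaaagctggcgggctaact
The motifs, searched on both strands, were TATAAA for the TATA box, CAGCTG for an E-box of the kind Atoh1 binds, TTTATG for Cdx2, TGTTTAC for forkhead factors such as the Foxa proteins, and CCGGAT for the core that Spdef binds. The Muc2 promoter held TATAAA from 174 to 169 bases upstream of the start and CAGCTG from 112 to 107 bases upstream. CAGCTG also stood in the Fcgbp promoter, from 208 to 203 bases upstream. TTTATG was found in the Spdef window from 191 to 186 bases before that inner start, and on the opposite strand in Agr2, where it reads CATAAA, from 47 to 42 bases upstream. No match overlapped another, and neither the forkhead nor the ETS letters occurred in these 4 windows. Among all 32851 promoters of the same length, 13.0% held CAGCTG, 12.4% held TATAAA, 10.8% held TTTATG, 4.94% held CCGGAT and 3.17% held TGTTTAC. The GC content was 53.2% for Muc2, 56.4% for Fcgbp, 44.4% for Agr2 and 52.8% for Spdef, beside a median of 52.4% over all promoters. These matches describe letters only. Variants of the letters, such as other spellings of a TATA box, were not searched, and no match was shown to be a working site at its position.

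The values are FPKM, which are fragment numbers normalised by transcript length and sequencing depth, as the authors deposited them. Their totals were 578491 to 646671 per library, and the steps between low values put the depth at an estimated 11800000 to 14300000 fragments. Kdm6b itself was at 16.5 and 16.0 FPKM in the control libraries, and at 18.2 in the library labelled Kdm6b-deficient replicate 1 and 11.1 in replicate 3. The difference of the group means was -0.18 ± 0.29 on the log2 scale (limma, adjusted p = 0.886), so Kdm6b RNA, summed over the whole gene, does not separate the labels, and groups are named by label throughout. The study also measured Kdm6b by RT-qPCR in sorted IELs of both genotypes, which these FPKM values do not replace. T cell genes were abundant in every library, for example Cd3e at 304 to 505 FPKM and Ptprc (CD45) at 268 to 410 FPKM. Of the surface genes the gate excludes, Cd8b1 was between 0 and 1.64 FPKM and Cd4 was between 3.17 and 30.6 FPKM.

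All 8 goblet genes were detected in every one of the 4 libraries, and control replicate 1 was the lowest and Kdm6b-deficient replicate 3 the highest for each of them. The members summed to 511 FPKM in control replicate 1 and 2077 in control replicate 3, and to 2095 and 4804 FPKM in Kdm6b-deficient replicates 1 and 3, by label. This is 0.0883%, 0.338%, 0.347% and 0.743% of all FPKM, respectively. Against control replicate 1, the sum was 4.07-fold in control replicate 3, 4.10-fold in Kdm6b-deficient replicate 1 and 9.40-fold in Kdm6b-deficient replicate 3. The gap between the 2 control libraries was therefore about as wide as the gap between control replicate 1 and Kdm6b-deficient replicate 1. In bulk RNA, fewer cells of a type and less RNA per cell cannot be told apart.

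**Figure D1:**
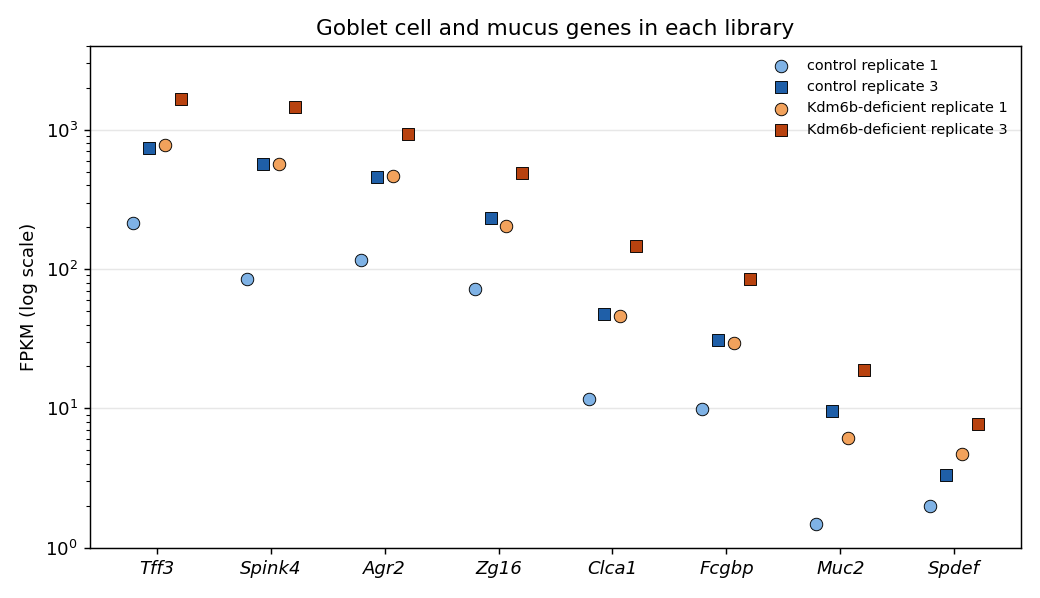
FPKM (y axis, log scale) of the 8 goblet cell and mucus genes (x axis, ordered by mean level), with 1 point per library, in blue for control and orange for Kdm6b-deficient, as circles for replicate 1 and squares for replicate 3. Control replicate 3 and Kdm6b-deficient replicate 1 lie close together for most genes, between the low control replicate 1 and the high Kdm6b-deficient replicate 3.

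Muc2, the mucin itself, was one of the least abundant members per transcript length. It was at 1.48 and 9.61 FPKM in control and at 6.11 and 19.0 FPKM in Kdm6b-deficient libraries. The groups overlapped, because control replicate 3 lay above Kdm6b-deficient replicate 1. The log2 fold change was 1.22 ± 0.82 (SE, limma adjusted p = 0.763).

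Among the proteins of the mucus layer, Fcgbp, which is cross-linked into the Muc2 gel, was at 9.89 and 31.0 FPKM in control and at 29.4 and 85.3 FPKM in Kdm6b-deficient libraries (log2 fold change 1.46 ± 0.68). Clca1, a secreted protease of the mucus, was at 11.7 and 47.5 FPKM in control and at 46.1 and 147 FPKM in Kdm6b-deficient libraries (1.75 ± 0.78). Zg16, a lectin that binds Gram-positive bacteria, was at 71.6 and 232 FPKM in control and at 203 and 491 FPKM in Kdm6b-deficient libraries (1.28 ± 0.66). For these 3 genes, as for Muc2, Kdm6b-deficient replicate 1 lay within the range of the 2 control libraries, and the adjusted p was 0.755 in limma for each.

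The small secreted peptides gave the highest values. Tff3 was at 214 and 734 FPKM in control (474 ± 368, SD, n = 2) and at 772 and 1666 FPKM in Kdm6b-deficient libraries (1219 ± 632), with a log2 fold change of 1.51 ± 0.66. Spink4 had the widest span as a fold, with 84.4 and 564 FPKM in control and 570 and 1452 FPKM in Kdm6b-deficient libraries, and a log2 fold change of 2.05 ± 0.93. In both genes the groups did not overlap, but Kdm6b-deficient replicate 1 exceeded control replicate 3 by 1.05-fold for Tff3 and 1.01-fold for Spink4, whereas the control libraries differed from each other by 3.43-fold and 6.69-fold. The limma adjusted p was 0.755 for both.

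Agr2, the folding enzyme, followed Tff3 closely. Its levels were 116 and 455 FPKM in control and 463 and 936 FPKM in Kdm6b-deficient libraries (log2 fold change 1.51 ± 0.69). The groups were separate by 1.02-fold between Kdm6b-deficient replicate 1 and control replicate 3. Spdef, the transcription factor, was low and varied least, at 1.99 and 3.33 FPKM in control and at 4.67 and 7.77 FPKM in Kdm6b-deficient libraries. Its groups were the most clearly separated of the members, by 1.40-fold, and its log2 fold change was 0.97 ± 0.38. It was the 1 member with an unadjusted p under 0.05 in limma (adjusted p = 0.755). The Spdef values rest on an estimated 51 to 163 fragments a library, while those of Tff3 rest on 1080 to 6919 and those of Fcgbp on 1100 to 7819. For Muc2 no transcript length was matched, so no fragment number was estimated.

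Taking the 8 genes as a list, 4 (Tff3, Agr2, Spdef and Spink4) were higher in both Kdm6b-deficient libraries than in both control libraries, and 18.4% of the 12009 genes tested were so ordered. A log2 fold change above 1 was found for 7 of 8, all but Spdef, against 6.2% of all genes tested. The median log2 fold change was 1.48 over the members and 0.00097 over all genes tested. Spink4 ranked 20 and Clca1 ranked 55 by log2 fold change among the 12009 genes, and Spdef, the lowest of the members, ranked 795. None of the 8 passed an adjusted p of 0.05 in limma without a replicate term, and neither did any other gene (0%). At an unadjusted p under 0.05 were 642 genes and 1 member, and the smallest adjusted p was 0.193. A fit with a replicate block gave another count, printed with the dependence on the processing. For a single gene, the smallest two-sided p that an exact permutation of 2 and 2 libraries can give is 0.333. The count of 7 with a log2 fold change above 1 became 0 without control replicate 1 and 2 without Kdm6b-deficient replicate 3, and 8 without either of the others.

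**Figure D2:**
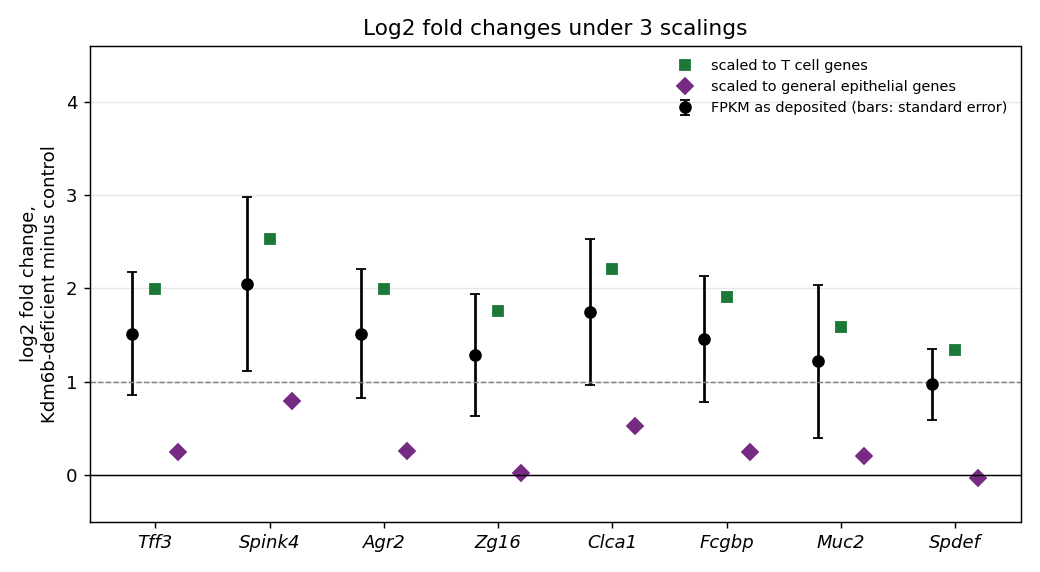
Log2 fold change, Kdm6b-deficient minus control (y axis), of each goblet gene (x axis) on FPKM as deposited (black circles, bars show the standard error), after scaling the libraries to 10 T cell genes (green squares) and after scaling them to 10 general epithelial genes (purple diamonds); the dashed line marks a log2 fold change of 1. The deposited values run from 0.97 to 2.05, and after scaling to epithelial genes they run from -0.035 to 0.79.

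The level of each member within a library was also compared with the others. In 3 libraries the order from high to low was Tff3, Spink4, Agr2, Zg16, Clca1, Fcgbp, Muc2 and Spdef. In control replicate 1, Agr2 stood above Spink4 and Spdef above Muc2. Neighbours in this order had overlapping ranges in both groups, except Zg16 and Clca1, and Fcgbp and Muc2, whose ranges were separate in both. Tff3 ranked 422 of all 19339 genes in control replicate 1 and 37 in Kdm6b-deficient replicate 3.

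Some proportions within the goblet list were even across libraries and others were not. The ratio of Agr2 to Tff3 was 0.540 and 0.620 in control and 0.599 and 0.562 in Kdm6b-deficient libraries, and that of Zg16 to Tff3 was 0.334 and 0.316 in control and 0.263 and 0.295 in Kdm6b-deficient libraries. The ratio of Spink4 to Tff3 was 0.394 in control replicate 1 and 0.768, 0.738 and 0.871 in the other libraries. Spdef stood at 1.35 times the level of Muc2 in control replicate 1, but at 0.347 in control replicate 3 and 0.764 and 0.409 in the Kdm6b-deficient libraries. The library in which the goblet genes were lowest was thus also the one whose proportions were most unlike the rest for Spink4 and Spdef.

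General epithelial, enterocyte, Paneth cell and stem and crypt genes were, like the goblet genes, lowest in sum in control replicate 1 and highest in Kdm6b-deficient replicate 3. The 10 general epithelial genes, such as Epcam, the keratins and the claudins, summed to 929 and 2894 FPKM in control and 2643 and 7260 FPKM in Kdm6b-deficient libraries, and the 14 enterocyte genes summed to 330 and 975 FPKM in control and 882 and 2515 FPKM in Kdm6b-deficient libraries. The 13 Paneth cell genes reached 3783 and 31524 FPKM in control and 15799 and 55675 FPKM in Kdm6b-deficient libraries. The 8 stem and crypt genes, such as Lgr5 and Olfm4, summed to 108 and 298 FPKM in control and 328 and 815 FPKM in Kdm6b-deficient libraries. No gene of these 4 lists was at 0 in any library, and Epcam alone was at 94.5 and 229 FPKM in control and 187 and 457 FPKM in Kdm6b-deficient libraries. A log2 fold change above 1 was found for 8 of 10 general epithelial, 13 of 14 enterocyte, 12 of 13 Paneth cell and 5 of 7 tested stem and crypt genes, with medians of 1.28, 1.33, 1.41 and 1.31 beside the 1.48 of the goblet genes. The 14 enteroendocrine genes summed to 80.1 and 62.1 FPKM in control and 90.2 and 79.0 FPKM in Kdm6b-deficient libraries, a sum not in this order, in which Gast, which encodes gastrin and was named after its values were seen, took 65.4 and 35.6 FPKM in control and 0.45 and 0.27 FPKM in Kdm6b-deficient libraries. The mean log2(FPKM + 1) of the enteroendocrine genes did have this order, at 1.6 in control replicate 3 and 1.76 in Kdm6b-deficient replicate 1 between 1.2 and 1.96, and 6 of 11 tested had a log2 fold change above 1, 1 (Gast) was below -1 and the median was 1.36. Of the 11, Tph1 (counted in the 6) and Neurod1 reached 1 FPKM only in the Kdm6b-deficient libraries, and Gast only in control, so the filter kept them through 1 group. The 8 tuft cell genes listed summed to 9.71 to 14.04 FPKM, lowest in control replicate 3, with none of 3 tested above 1. None of the genes of these 6 lists passed the adjusted p in limma. The 10 T cell genes ran the other way, from 5741 and 4632 FPKM in control to 4485 and 3246 FPKM in Kdm6b-deficient libraries, and all 10 were highest in control replicate 1 (median log2 fold change -0.52). The part of epithelial RNA in the goblet gene differences was not tested, beyond the values given next.

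**Figure D3:**
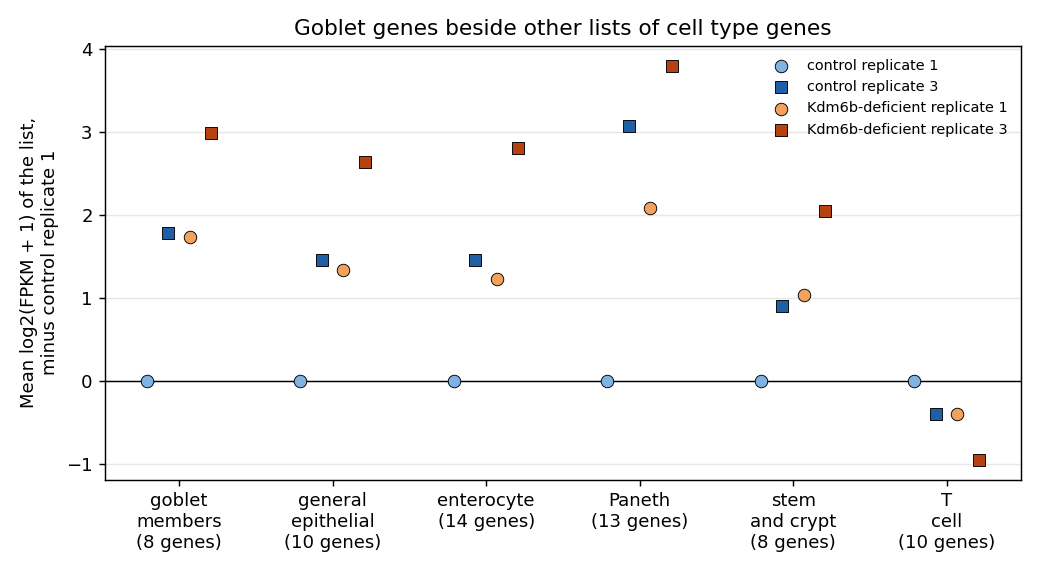
Mean log2(FPKM + 1) of each gene list minus its value in control replicate 1 (y axis) for the goblet genes and 5 other lists (x axis), with 1 point per library in the colours and shapes of the plot of FPKM. The goblet genes stand 1.78, 1.74 and 2.99 above control replicate 1 in control replicate 3, Kdm6b-deficient replicate 1 and Kdm6b-deficient replicate 3, the general epithelial genes 1.46, 1.33 and 2.63, and the T cell genes lie 0.40, 0.40 and 0.95 below it.

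Set against the general epithelial genes of the same library, the goblet genes differed between groups by less than the control libraries differed from each other. Their mean log2(FPKM + 1) minus that of the 10 epithelial genes was -1.24 and -0.91 in control and -0.83 and -0.88 in Kdm6b-deficient libraries. The group difference was 0.22, which is within the SD of 0.23 between the 2 control libraries (SD 0.034 in Kdm6b-deficient). It was 0.055 without control replicate 1 and 0.38 without control replicate 3. Measured against the enterocyte genes the difference was 0.18, against the Paneth cell genes it was 0.064, and against the stem and crypt genes it was 0.38. By gene, it ran from -0.28 for Spdef and -0.035 for Muc2 over 0.031 for Zg16, 0.20 for Fcgbp, 0.26 for Tff3 and 0.26 for Agr2 to 0.50 for Clca1 and 0.80 for Spink4. When the libraries were scaled to the same 10 genes before the pseudocount was added, Muc2 was at 0.20 and Spdef at -0.035. The values of these low genes thus depend on where the pseudocount enters. Tff3, Clca1, Fcgbp and Spink4, 4 of the 8, stood higher relative to epithelium in both Kdm6b-deficient libraries than in both control libraries, for example Clca1 at -1.66 and -1.31 against -2.22 and -1.75. For Tff3 the nearest values were 2.18 and 2.17. So ordered on this scale were 0.808% of all 12009 genes, whose median log2 fold change was -1.14 after scaling to the epithelial genes, and 4 of 14 enterocyte, 0 of 13 Paneth cell and 2 of 7 stem and crypt genes. Spink4 was at 0.53 in control replicate 1 and at 1.79, 1.94 and 1.98 in the other 3 libraries.

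**Figure D4:**
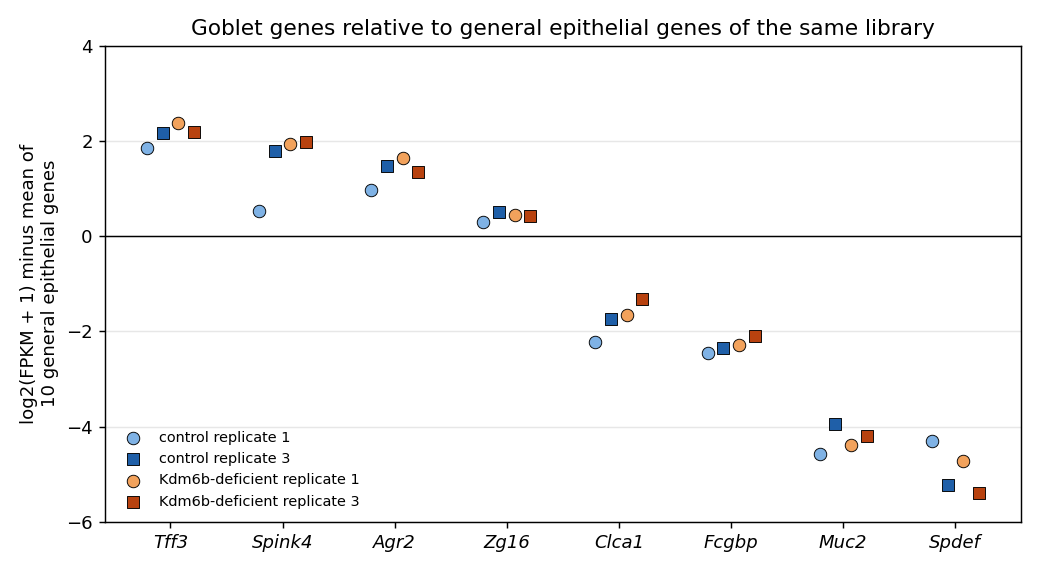
Log2(FPKM + 1) of each goblet gene minus the mean of 10 general epithelial genes of the same library (y axis), by gene (x axis), with the same colours and shapes. For Zg16 the 4 libraries lie within 0.23 of each other, and for Spink4 control replicate 1 lies apart from the other 3.

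The libraries of nearest epithelial level were Kdm6b-deficient replicate 1 and control replicate 3, a pair chosen after the values were seen, and between them the goblet genes were nearly level. The fold of Kdm6b-deficient replicate 1 over control replicate 3 had a median of 0.991 over the 8 genes. Muc2 was lowest at 0.636-fold, Zg16, Fcgbp and Clca1 were at 0.874, 0.948 and 0.971-fold, and Spink4, Agr2 and Tff3 were at 1.01, 1.02 and 1.05-fold. Spdef was highest at 1.40-fold. This sets 1 library against 1 and has no test.

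Of the other secreted products of goblet and neighbouring cells, 12 of 13 were lowest in control replicate 1 and 10 of 13 were highest in Kdm6b-deficient replicate 3. Of the 13, 10 passed the filter on low values and were tested. Of these, 7 had a log2 fold change above 1 (6.2% of all genes tested) and none was below -1. Higher in both Kdm6b-deficient libraries were 3 (18.4% of all genes tested). Agr3 was counted among the 7 and the 3. It was at 0 and 0.53 FPKM in control and 1.55 and 2.78 FPKM in Kdm6b-deficient libraries, so it passed the filter only through the latter. Lypd8, which keeps flagellated bacteria off the epithelium, was at 218 and 698 FPKM in control and at 542 and 1208 FPKM in Kdm6b-deficient libraries (log2 fold change 1.05). Ang4, an antimicrobial ribonuclease, was at 29.0 and 391 FPKM in control and at 193 and 599.8 FPKM in Kdm6b-deficient libraries (1.65). Guca2a, the precursor of the peptide guanylin, was at 44.5 and 162 FPKM in control and at 182 and 384 FPKM in Kdm6b-deficient libraries (1.63). Guca2a was thus one of the 3 whose groups did not overlap, whereas Lypd8 and Ang4 were lower in Kdm6b-deficient replicate 1 than in control replicate 3. The gel-forming mucins Muc5ac and Muc5b did not exceed 0.29 and 0.09 FPKM in any library.

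The transmembrane mucins form the glycocalyx of the cell surface and not the secreted gel. Of these, 3 of 5 tested had a log2 fold change above 1, against 6.2% of all genes tested. Muc13 was at 33.9 and 90.9 FPKM in control and at 87.8 and 177 FPKM in Kdm6b-deficient libraries (1.15). Muc3 was at 32.4 and 59.4 FPKM in control and at 101 and 115 FPKM in Kdm6b-deficient libraries (1.28, limma adjusted p = 0.755), and Muc4 was at 0.36 and 1.01 FPKM in control and at 1.81 and 3.49 FPKM in Kdm6b-deficient libraries (1.10). Muc3 and Muc4 were higher in both Kdm6b-deficient libraries than in both control libraries, as were 18.4% of all genes tested, and Muc13 was not.

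Enzymes and organelle proteins used in mucus production, many of which other cells also use, had lower median log2 fold changes than the members. For the O-glycan enzymes, 2 of 16 tested had a log2 fold change above 1, against 6.2% of all genes tested, and the median was 0.35. Both Kdm6b-deficient libraries were above both control libraries for 4 of the 16, against 18.4% of all genes, and below them for 3 (Galnt6, C1galt1 and Gcnt1), against 18.6% of all genes, the last 2 named after their values were seen. The most abundant of them was Galnt6, which starts O-glycan chains, at 54.9 and 45.7 FPKM in control and 39.3 and 41.4 FPKM in Kdm6b-deficient libraries (-0.31). The chaperone of core 1 synthesis, C1galt1c1, was at 20.8 and 37.5 FPKM in control and 36.7 and 49.7 FPKM in Kdm6b-deficient libraries (0.59). B4galnt2, which adds the Sda antigen sugar, was at 16.2 and 22.1 FPKM in control and 20.9 and 44.1 FPKM in Kdm6b-deficient libraries (0.66). Of the secretory machinery, 7 of 16 had a log2 fold change above 1 (6.2% of all genes tested), with a median of 0.78. Both Kdm6b-deficient libraries were above both control libraries for 8 of these 16 and below them for none, against 18.4% and 18.6% of all genes. Xbp1, the transcription factor of the unfolded protein response, was nearly even at 171 to 205 FPKM (0.14), and so was the granule fusion protein Vamp8 at 152 to 175 FPKM (0.10). Txndc5, an isomerase of the endoplasmic reticulum, was at 17.6 and 23.8 FPKM in control and 31.1 and 42.5 FPKM in Kdm6b-deficient libraries (0.80).

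The transcription factors of the secretory lineage were low, with 3 of 5 tested above a log2 fold change of 1, against 6.2% of all genes tested. Foxa1 was counted among the 3. It was at 0.07 and 0.52 FPKM in control and 1.52 and 1.85 FPKM in Kdm6b-deficient libraries, so it passed the filter only through the latter. Klf4, a factor of goblet cell differentiation, was at 4.52 and 5.93 FPKM in control and 8.66 and 9.60 FPKM in Kdm6b-deficient libraries (0.71). Foxa3 was at 0.40 and 3.58 FPKM in control and 2.46 and 9.21 FPKM in Kdm6b-deficient libraries (1.23). Gfi1, which acts in secretory progenitors and also in T cells, was at 10.5 and 4.47 FPKM in control and 8.45 and 1.40 FPKM in Kdm6b-deficient libraries (-0.73). None of the genes in these 5 groups passed an adjusted p of 0.05 in limma.

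The genes most like the members were found by the distance of their centred log2(FPKM + 1) values over the 4 libraries from the mean of the 8 goblet genes, among 8909 candidates with a mean of at least 5 FPKM. The nearest were Slc44a3 (distance 0.080), Hbegf (0.0863), Ocln (0.0868), Gm1123 (0.0953) and Elf3 (0.102), followed by Tmc4, Slc1a1, Epb41l3, Cdh17 and Hkdc1 (0.113 to 0.130). Ocln encodes the tight junction protein occludin, Elf3 an epithelial ETS factor and Cdh17 a cadherin of the intestinal epithelium. Elf3 was at 47.5 and 152 FPKM in control and 151 and 353 FPKM in Kdm6b-deficient libraries. The members themselves lay between 0.111 (Tff3) and 1.11 (Spdef) from their own mean, to which they contribute. This likeness rests on 4 libraries and describes the order and spread of levels only.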

How the data were processed

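RNA-seq of 2 control and 2 Kdm6b-deficient libraries of TCRβ+CD8αα+ IELs was used. The authors used HISAT, Bowtie2 and RSEM on mm10 (Bowtie2 2.2.5 and RSEM 1.2.8 in the submitters' processing notes) and deposited FPKM per gene. Symbols and coordinates were matched by Entrez identifier to RefSeq (GRCm38.p6).

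The 12009 genes that reached 1 FPKM in 2 or more libraries, all 8 members among them, were tested as log2(FPKM + 1) with limma 3.58.1 (trend, R 4.3.3), two-sided, with Benjamini-Hochberg adjustment over all of them and no replicate term. The model was tested on simulated data. The pseudocount of 1 understates fold changes of low genes. Fragment numbers were estimated from the steps of low FPKM multiplied by transcript length and cover counting error only. The p-values measure the spread between pooled libraries, which nothing in the labels ties to separate experiments.

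The members, lists and tests were chosen with earlier results of these data known. All members were named, with the 3 most abundant genes of each other goblet list, the 10 genes of nearest profile, and Kdm6b, Epcam, Cd3e and Ptprc. Muc5ac, Muc5b, Agr3, Foxa1, Tph1, Neurod1 and the genes under the other observations were named after their values were seen. Alternatives were another pseudocount, filter, scaling or variance model, a replicate block and leaving out each library. Single-cell and CUT&Tag data were not analysed here.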

Additional observations from a re-analysis of the deposited data

How the results depend on the processing

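The log2 fold changes of the 8 goblet genes kept their sign under each alternative except the pair of library and scaling choices named below, and no member passed an adjusted p of 0.05 except with the replicate block. With a replicate block in limma, 7 of 8 members passed, all but Spdef (adjusted p = 0.0512), beside 1019 of all 12009 genes tested (8.49%, 886 higher and 133 lower); the deviations of same-numbered libraries from their group means had a Pearson correlation of 0.56 across genes, with 2 pairs, and nothing in the labels says that a number marks shared material. Leaving out each library in turn gave 0 to 8 members with a log2 fold change above 1 and 0 members past the adjusted p. With a pseudocount of 0.1, and with scaling to the T cell genes, the count was 8, while over all genes it went from 744 to 1203 and 1576; the T cell scaling moved the median of all genes to 0.43. Scaling to the general epithelial genes, chosen after seeing the data, gave 0 members above 1, moved the median of all genes to -1.14 and turned Spdef to -0.035. Kdm6b-deficient replicate 1 against control replicate 3 alone, also chosen after seeing the data, gave 0 members above 1 and reversed Muc2 (-0.58), Clca1 (-0.041), Fcgbp (-0.074) and Zg16 (-0.19). A filter of at least 5 FPKM left out Spdef. The difference of the members from the general epithelial genes (0.22) kept its sign under each alternative run, and ranged from 0.055 (without control replicate 1) to 0.38 (without control replicate 3) when each library was left out. With 2 libraries a group, precision is limited by their number, and of the members with an estimate Spdef, with 51 fragments in control replicate 1, rests on the fewest.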

Other observations

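Some other secreted products, named after their values were seen, varied widely between the libraries. Tff1, a trefoil peptide mainly of the stomach, was at 0.21 and 94.7 FPKM in control and at 22.6 and 63.2 FPKM in the libraries labelled Kdm6b-deficient, so that control replicate 3 was the highest. Tff2, the trefoil peptide of gastric mucous neck and duodenal gland cells, was at 25.9 and 142 FPKM in control and at 64.3 and 182 FPKM in Kdm6b-deficient libraries. Muc6, the gel-forming mucin of those glands, was at 3.0 and 5.03 FPKM in control and at 3.15 and 20.3 FPKM in Kdm6b-deficient libraries. Retnlb, a goblet cell antimicrobial protein, was between 0 and 3.92 FPKM and was highest in Kdm6b-deficient replicate 1. Tff2 and Muc6, like the 8 goblet genes, were lowest in control replicate 1 and highest in Kdm6b-deficient replicate 3, and Tff1 and Retnlb were not so ordered.

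Of the goblet cell genes outside the 8, Atoh1, the factor that commits cells to the secretory lineage, was at 1.47 and 1.92 FPKM in control and at 4.51 and 5.89 FPKM in Kdm6b-deficient libraries (log2 fold change 1.2 ± 0.32, limma adjusted p = 0.755). Gcnt3, which branches O-glycans, was at 0.94 and 5.20 FPKM in control and at 9.95 and 9.97 FPKM in Kdm6b-deficient libraries (1.66 ± 0.57, adjusted p = 0.755), and Galnt3, which starts O-glycan chains, was at 1.36 and 3.5 FPKM in control and at 6.04 and 13.2 FPKM in Kdm6b-deficient libraries (1.61 ± 0.50, adjusted p = 0.755). For these 3 genes, picked for their values, both Kdm6b-deficient libraries stood above both control libraries, as did 18.4% of all genes tested, and none passed the adjusted p.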
